A study of Bos taurus with 79 samples.

Results

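The comparison described here is that of pregnant with cyclic heifers on day 7 when progesterone was high, in 9 of the 79 arrays of the series. The members were chosen by their labels (day 7, high progesterone), and hold 5 pregnant and 4 cyclic heifers. The animals were cross-bred beef heifers whose estrus had been synchronized, and the tissue was strips of endometrium, from which total RNA was hybridised to Affymetrix bovine arrays, 1 array per sample. High progesterone came from a progesterone releasing intravaginal device (PRID), placed on day 3 and left until slaughter, which the cyclic and the pregnant animals of this comparison both carried. Pregnant animals had been inseminated and carry a label of pregnancy, and cyclic animals had been assigned as controls. The groups are written PH (pregnant, high progesterone) and CH (cyclic, high progesterone), and an array carries its group and its replicate number, as in CH 3. CH holds the numbers 2, 3, 4 and 5 only. Without the device, 5 pregnant (PN) and 5 cyclic (CN) heifers of the same day were at normal progesterone. The labels call the arrays biological replicates and give no further detail of the animals, so p-values measure the spread between samples. In the main fit that spread is taken within groups over all 79 arrays of the series, not from these 9 alone. Precision is limited by how few arrays there are.

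On day 7 the bovine embryo is a morula or early blastocyst that has only just reached the uterus and is still free in its lumen. The endometrium around it is under the rising progesterone of the new corpus luteum, which lowers its own receptor in the epithelium and changes what the glands secrete, the histotroph that feeds the embryo before it attaches. The best known signal of pregnancy in cattle, interferon tau from the trophectoderm of the elongating conceptus, induces interferon-stimulated genes in the endometrium and prevents the release of luteolytic prostaglandin, and its large effect comes later than day 7. Progesterone given early advances these endometrial changes, and the question of this comparison is whether the tissue of a pregnant heifer then differs from that of a cyclic heifer under the same supplement.

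Values are log2 expression of a probe set. Levels are given per array or as mean ± SD over arrays, and differences are pregnant minus cyclic on the log2 scale ± SE from limma. Of 24016 probe sets tested, 13292 carried 1 gene symbol, and these stood for 9155 named genes, each described by its brightest probe set unless another is named. A probe set passed the threshold when its limma p, adjusted by Benjamini-Hochberg over all 24016, was under 0.05. The RNA came from whole strips of tissue, so fewer cells of a type and less RNA per cell cannot be told apart.

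The tissue carried the markers of endometrium. The mean of 19 epithelial markers lay between 7.30 and 7.70 over the 9 arrays, and that of 15 stromal markers between 9.74 and 10.22. The 7 markers of embryo and trophectoderm had means between 2.33 and 2.75, at the low end of the range of all values, which ran from 0.95 to 15.37.

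Array CH 3 stood apart from the other 8 in the shape of its values. Its SD over probe sets was 2.60, against 2.85 to 2.88 in the others. Its 25th percentile was 3.00 (2.56 to 2.63 in the others), its median 4.71 (5.00 to 5.06) and its 75th percentile 7.16 (7.60 to 7.65). Dim probe sets were thus higher on CH 3 and bright ones lower: for probe sets with a mean level under 3 the median of CH 3 minus the other cyclic arrays was 0.29, and for those between 5 and 8 it was -0.48. It was the highest of the 9 arrays for 82.5% of the 7738 probe sets with a level under 3. Single genes of CH 3 were far from the others too: LTF, the secreted iron-binding protein lactoferrin, was at 6.82 on CH 3 and between 10.75 and 13.69 on the other 8 arrays. What sets this array apart was not tested, and results are given with and without it.

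**Figure D1:**
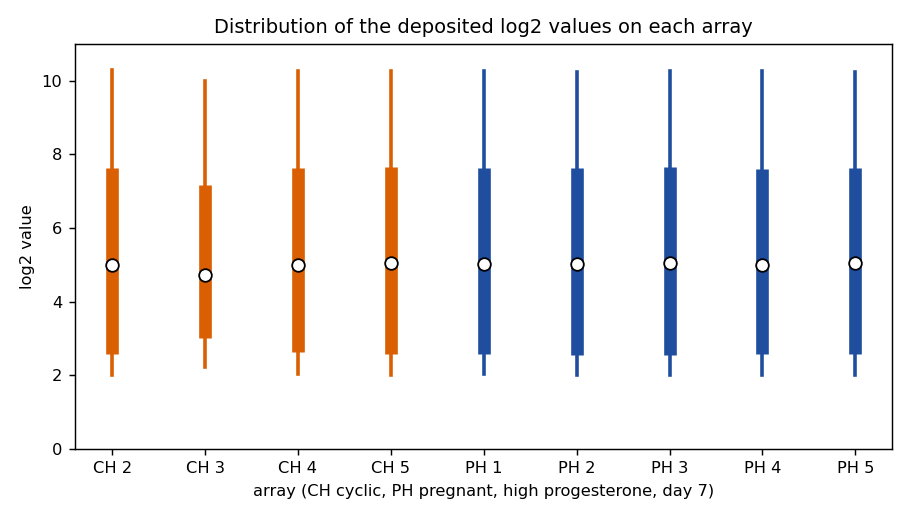
Log2 values of the 24016 probe sets on each of the 9 arrays: thin line, range without the extreme tails (q05 to q95); thick bar, middle quartiles (q25 to q75); circle, median; orange, cyclic (CH), blue, pregnant (PH). The median of CH 3 is 4.71 and those of the other 8 arrays are 5.00 to 5.06.

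Few probe sets separated pregnant from cyclic heifers, and most of those that did were dim. How many depended strongly on which cyclic arrays entered and on the spread shared over groups. With all arrays 75 of 24016 passed (0.312%), of which 4 were higher (0.0167%) and 71 lower (0.296%) in pregnancy. Without CH 3 there were 8 (0.0333%), all lower, and 7 of them were among the 75. Leaving out another cyclic array in place of CH 3 raised the count, to 4026 without CH 2, 2435 when CH 4 was omitted and 4601 on omission of CH 5. When the 9 arrays alone were fitted, or the 19 of day 7, 0 passed by limma (925 and 1423 at an unadjusted p under 0.05). The count at an unadjusted p under 0.05 fell with that array as well, from 5441 (1041 higher and 4400 lower) to 699 (247 higher and 452 lower). Over all probe sets the median difference was -0.03, and -0.01 without CH 3. Of the 75, 5 differed by at least 2-fold, and 55 by less than 0.5 on the log2 scale.

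The calls lay mostly among dim probe sets. Of the 71 lower probe sets 61 had a mean level under 3, against 32.2% of all probe sets, and their median level was 2.45. CH 3 was the highest of the 9 arrays in 49 of the 71 and the lowest in 3 of the 4 that were higher. All 75 kept their sign without CH 3, 72 of them with an unadjusted p under 0.05, and their median difference went from -0.31 to -0.18. The remaining arrays had also chosen the 75, so the kept signs were largely set by that choice. Over all 24016 probe sets 19076 kept their sign, 687 of them with an unadjusted p under 0.05 by limma without CH 3. In 25 of the 75 the arrays of the 2 groups did not overlap, while over all probe sets every pregnant array was above every cyclic one in 0.77% and below in 0.908% (1.02% and 1.52% without CH 3). The fit uses 1 spread per probe set for all groups; among probe sets with a level under 3 the median SD was 0.18 in CH, 0.04 in CH without CH 3 and 0.01 in PH. Among the 4968 probe sets with a level of 8 or over, which hold most strongly expressed genes, 0 passed with all arrays by limma and 0 without CH 3, while 96 of them had an unadjusted p under 0.05 and the same sign without CH 3.

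**Figure D2:**
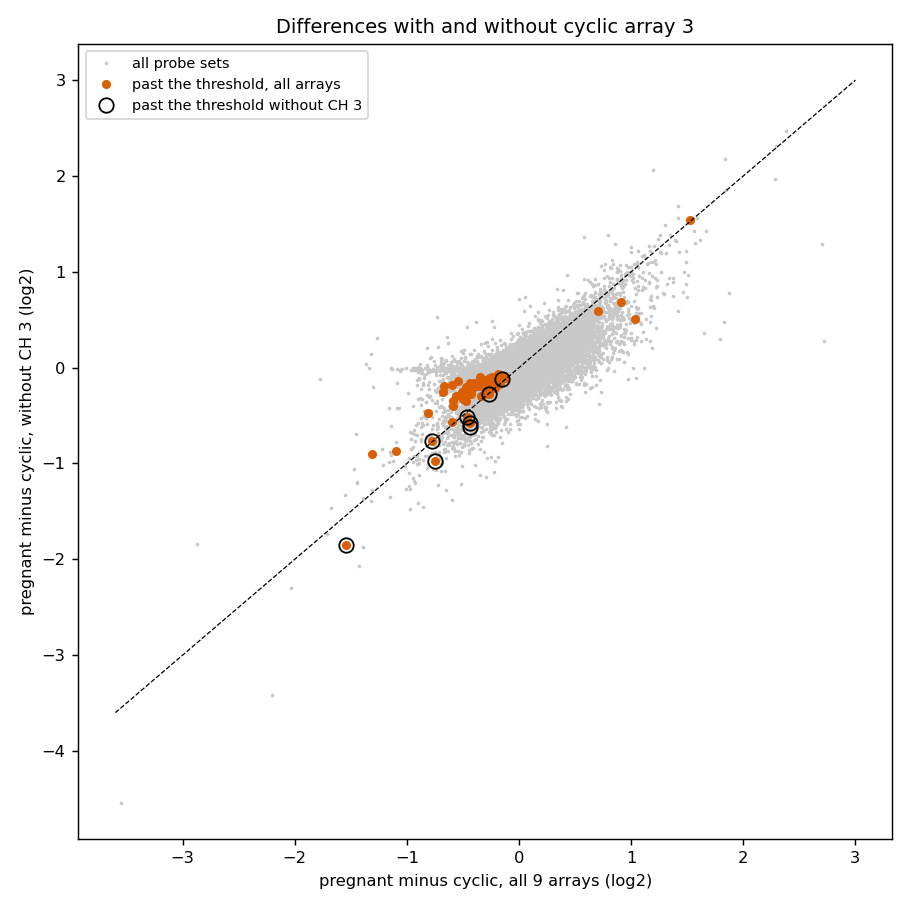
Difference between pregnant and cyclic heifers (log2) with all 9 arrays (horizontal) and without CH 3 (vertical) for each of 24016 probe sets; dashed line, equal values. The 75 probe sets past the threshold (orange) are mostly small negative differences, and black rings mark the 8 past it without CH 3.

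At named genes 28 of 9155 passed by their brightest probe set (0.306%), 2 higher (0.0218%) and 26 lower (0.284%), and without CH 3 there was 1 (0.0109%), ANKRD13D. The 2 that rose in pregnancy had moderate levels. RPP38, a protein subunit of ribonuclease P, which trims the 5′ end of transfer RNA precursors, was at 5.95, 5.92, 6.0, 5.94 and 6.17 in PH 1 to PH 5 and at 5.57, 4.97, 5.52 and 5.11 in CH 2 to CH 5. No pregnant array fell among the cyclic ones. The difference was 0.70 ± 0.15 (adjusted p = 0.0135), and 0.59 ± 0.16 without CH 3 (adjusted p = 0.358). Of the 4 groups of day 7 the cyclic one with high progesterone was the low one, since RPP38 was at 5.99 ± 0.24 in CN and 6.13 ± 0.19 in PN (SD, n = 5). Its second probe set differed by 0.05 and did not pass.

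ACCS, which is named for its likeness to the plant enzyme 1-aminocyclopropane-1-carboxylate synthase, had values of 4.89, 5.38, 5.53, 4.90 and 4.99 in the pregnant heifers and 3.99, 3.58, 4.79 and 4.57 in the cyclic ones. The groups did not overlap, although CH 4 at 4.79 came close to the lowest pregnant array. The difference of 0.91 ± 0.22 passed (adjusted p = 0.0349) and was 0.69 ± 0.23 without CH 3 (adjusted p = 0.935). Its 2 other probe sets differed by -0.37 and 0.49 and did not pass.

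The other 2 higher probe sets have no gene name here. Bt.22322.1.S1_at showed the largest rise, 1.52 ± 0.37 (adjusted p = 0.0420), with pregnant values of 3.21, 5.49, 5.01, 5.73 and 4.61 and cyclic values of 2.83, 3.36, 3.31 and 3.67. PH 1 lay within the cyclic range and the other 4 above it. Its difference kept its size without CH 3 (1.54 ± 0.41, adjusted p = 0.290). Bt.2914.2.S1_at rose by 1.03 ± 0.24 with all arrays (adjusted p = 0.0314), and without CH 3 the difference of 0.51 ± 0.21 did not pass (adjusted p = 1.00); CH 3 read 4.00 against 6.02 to 6.18 in the other cyclic arrays.

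Of the named genes that were lower in pregnancy, CACNB2 and RGS14 differed by more than 1 on the log2 scale. CACNB2, an auxiliary subunit of voltage-gated calcium channels, was at 2.55, 2.52, 2.54, 2.69 and 2.54 in the pregnant heifers and at 3.49, 5.13, 2.91 and 4.00 in the cyclic ones, so that all pregnant arrays sat in a narrow low band. It fell by 1.31 ± 0.33 (adjusted p = 0.0475), and the difference was -0.90 ± 0.33 without CH 3 (adjusted p = 1.00). At normal progesterone its level was also variable in the cyclic group (3.38 ± 0.94 in CN, 2.74 ± 0.26 in PN), with a difference of -0.63.

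RGS14, which shortens signals from G protein-coupled receptors, was at 3.34, 3.77, 3.29, 3.45 and 3.68 in PH and at 4.65, 5.30, 4.26 and 4.22 in CH. Every cyclic array was above every pregnant one. It fell by 1.10 ± 0.21 (adjusted p = 0.00422), and without CH 3 the difference was -0.87 ± 0.21 (adjusted p = 0.212; unadjusted p = 0.000132). At normal progesterone the difference was -0.16, between 3.91 ± 0.45 in CN and 3.75 ± 0.30 in PN.

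ANKRD13D, an ankyrin repeat protein that binds ubiquitin on internalised receptors, was the one gene called by its brightest probe set both with all arrays and without CH 3. Its values were 2.06, 2.68, 2.19, 2.05 and 2.05 in PH and 2.46, 3.02, 3.43 and 3.03 in CH, with an overlap only at PH 2 and CH 2. It fell by 0.78 ± 0.12 (adjusted p = 0.000193), and the difference was -0.77 ± 0.13 without CH 3 (adjusted p = 0.00175). CN and PN were at 2.18 ± 0.30 and 2.11 ± 0.09, near the level of PH, and both values are close to the floor of the arrays.

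P2RY2, LRP12 and TEPSIN also passed both ways, each at a dim probe set. P2RY2, the receptor for extracellular ATP and UTP, read 1.64, 1.62, 1.64, 1.63 and 1.64 in PH and 1.65, 1.70, 2.81 and 3.37 in CH at one of its probe sets. The 5 pregnant arrays were at the floor, as were CH 2 and CH 3, and the difference rested on CH 4 and CH 5. It fell by 0.75 ± 0.16 (adjusted p = 0.0114), and the difference was -0.97 ± 0.16 without CH 3 (adjusted p = 0.000882), while the gene's 3 other probe sets, with differences from -0.28 to -0.07, did not pass. LRP12, a receptor of the low-density lipoprotein receptor family, was between 2.22 and 2.27 in PH at its dimmer probe set and at 2.94, 2.57, 2.28 and 3.07 in CH, a difference of -0.47 ± 0.09 (adjusted p = 0.00656; without CH 3 -0.51 ± 0.10, adjusted p = 0.0134); its brighter probe set differed by -0.32 and did not pass. TEPSIN, an accessory protein of the AP-4 coat of transport vesicles, had the smallest difference of them, -0.15 ± 0.03 (adjusted p = 0.00136; without CH 3 -0.12 ± 0.02, adjusted p = 0.0286), between 1.86 to 1.88 in PH and 1.88, 2.13, 2.03 and 2.04 in CH, again at a dimmer probe set.

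Among the probe sets that passed, the largest fall belonged to one without a name here, Bt.27704.1.A1_at. It read 2.46, 2.72, 2.38, 2.25 and 2.25 in PH and 3.82, 3.02, 4.16 and 4.81 in CH. No array of one group reached the other, and CN (2.25 ± 0.02) and PN (2.28 ± 0.02) were at the floor, so that it stood above the floor in every cyclic heifer with high progesterone. The difference was -1.54 ± 0.23 (adjusted p = 8.39e-05), and -1.85 ± 0.23 without CH 3 (adjusted p = 4.31e-07). Bt.26169.1.A1_at was the second unnamed one that passed both ways, with differences of -0.44 ± 0.10 (adjusted p = 0.0360) and -0.57 ± 0.11 without CH 3 (adjusted p = 0.00478). The last of the 7 that passed both ways was unnamed as well (-0.27 ± 0.05, adjusted p = 0.00457; without CH 3 -0.28 ± 0.06, adjusted p = 0.0190). OPLAH, the enzyme that opens 5-oxoproline to glutamate in the glutathione cycle, passed only without CH 3 (-0.62 ± 0.11, adjusted p = 0.00175; with all arrays -0.44, adjusted p = 0.0543) and was chosen after its values were seen; CH 2 and CH 5 were at 3.01 and 3.25, and CH 4 at 2.06 was within the pregnant range of 1.96 to 2.44.

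The remaining named genes that passed and come under the rule for naming are the receptor of neurotrophin-3 NTRK3, the mitochondrial protein MGARP, the hyaluronan-degrading CEMIP2, the histidine-breakdown enzyme FTCD, the sperm chromatin protein TNP1, the kinase CDK18, the ribonuclease P subunit POP1, the milk protein gene PAEP (beta-lactoglobulin), the secreted synaptic protein CBLN4, embryonic muscle myosin MYH3, the calcium channel subunit CACNB1, the ubiquitin ligase TRIM9, the fibroblast growth factor co-receptor KLB and the phosphatase PRUNE1. Their differences ran from -0.60 (NTRK3, adjusted p = 0.0475) to -0.25 (PRUNE1, adjusted p = 0.00820) and none passed without CH 3. NTRK3 was at 2.10 to 2.13 in PH, 3.98 in CH 3, and 2.29, 2.16 and 2.44 in the other cyclic arrays. Its difference was -0.18 ± 0.09 without CH 3. FTCD rested on 2 cyclic arrays, CH 3 at 3.42 and CH 5 at 3.19, with CH 2 at 2.43 and CH 4 at 2.47 against 2.40 to 2.41 in PH. CDK18, CACNB1 and PRUNE1 passed at a dimmer probe set of the gene, and their brighter ones did not pass.

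**Figure D3:**
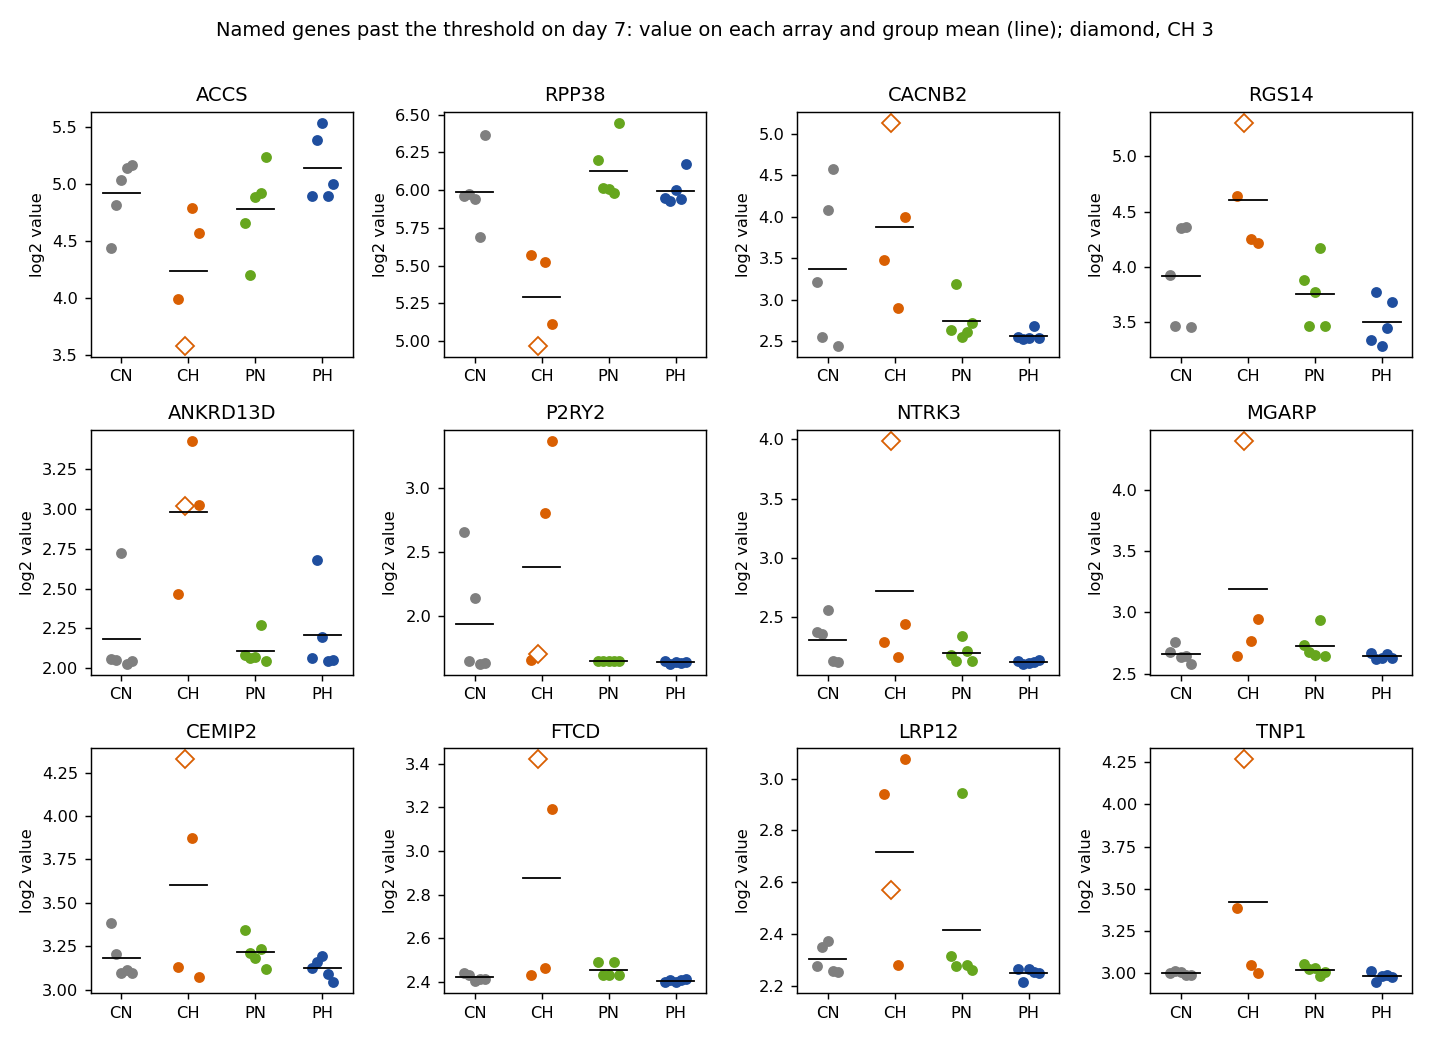
Log2 values on each day 7 array of the 2 named genes that rose and of the 10 with the largest falls, in CN, CH, PN and PH (5, 4, 5 and 5 arrays); line, group mean; open diamond, CH 3. RPP38 and ACCS are low in CH, and for the other genes CH has the highest mean; the 5 PH arrays lie between 2.52 and 2.69 for CACNB2 and between 2.05 and 2.68 for ANKRD13D.

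The normal-progesterone groups of day 7 give the levels of these probe sets without the device. Of the 71 lower probe sets CH had the highest mean of the 4 day 7 groups in 71, and in 69 without CH 3. The choice itself placed CH above PH in all of them, and over the 7738 probe sets with a level under 3 CH had the highest mean in 79.7% (11.6% without CH 3). The median over the 71 of the group means was 2.42 in CN, 2.46 in PN and 2.41 in PH, and 2.75 in CH (2.65 without CH 3). In the 4 higher probe sets CH had the lowest mean in all 4. Here the choice had placed CH below PH, and CH 3 was the lowest of the 9 arrays in 3 of the 4. Over all 24016 probe sets CH had the lowest mean in 7123, and in 3426 of the 7124 with a level between 5 and 8. At normal progesterone, where no array is shared with this comparison, 11 of the 71 had a lower and 2 of the 4 a higher mean in pregnancy. That is the direction found at high progesterone for 17.3% of the 75, against 39.5% of all probe sets and 20.1% of those with a level under 3. The median difference of the 75 at normal progesterone was 0.03.

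At normal progesterone 0 of 24016 probe sets differed between PN and CN by limma (0%; 888 at an unadjusted p under 0.05). CN held an array far from its group as well. The SD of the deviations from the group means was 0.57 for CN 5 and 0.33 to 0.36 for the other CN arrays. It was 0.57 for CH 3. Without CN 5, 2 probe sets passed by limma at normal progesterone. The test of whether pregnancy made another difference at high than at normal progesterone was passed by 6 probe sets (0.025%), all in the negative direction, and by 4 without CH 3 (0.0167%), with 3 shared. Among the named ones were TEPSIN (-0.17 ± 0.04, adjusted p = 0.0448; without CH 3 -0.14, adjusted p = 0.221) and HBB, the beta chain of haemoglobin (-0.47 ± 0.10, adjusted p = 0.0448; without CH 3 -0.30, adjusted p = 0.277). HBB was at 2.65, 2.73, 2.63, 2.64 and 2.64 in PH and at 2.74, 3.54, 2.85 and 2.95 in CH. It fell by 0.36 ± 0.07 in the comparison at high progesterone (adjusted p = 0.00585), with -0.19 ± 0.06 without CH 3 (adjusted p = 0.441). The 8 measured markers of red blood cells, HBB among them, had means of 2.48, 2.84, 2.54 and 2.48 in CH and of 2.40 to 2.46 in PH, with 7 of the 8 at a level under 3; their part in the result was not tested. The unnamed Bt.27704.1.A1_at passed this test with and without CH 3 (-1.57, adjusted p = 0.0448, and -1.88, adjusted p = 0.000917).

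Pregnancy at high progesterone had been compared on the other days in the same way. There 2 probe sets passed on day 5 (0.00833%), 1 on day 13 (0.00416%) and 1868 on day 16 (7.78%). The pregnant group of day 13 held the other array of narrow distribution in the series, its replicate 1. The SD of that array was 2.68, its 25th percentile 2.83 and its 75th percentile 7.30. Apart from it and CH 3, the SD ran from 2.82 to 2.93 over the series. Its part in the tests that use day 13 was not tested. Between day 7 and day 5 the pregnancy difference changed in 0 probe sets by limma (0%; 2491 at an unadjusted p under 0.05), and in 2 without CH 3 (0.00833%). Against day 13 it changed in 16 (0.0666%) and 2 (0.00833%), and against day 16 in 451 (1.88%) and 183 (0.762%). Of the 75 day 7 probe sets, 10 differed from day 13 and 7 from day 16, and 2 and 5 without CH 3. These tests share the arrays that chose the 75. RGS14 was among them, with differences of 0.30, 0.33 and 0.35 on days 5, 13 and 16, and so was ANKRD13D, with 0.04, 0.13 and -0.00. The differences of RPP38 on those days were -0.10, -0.03 and 0.08.

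Known pathways were followed through 42 lists (30 of pathways and 12 of cell types), with 837 genes measured. With all arrays 1 of the 837 passed, HBB, and without CH 3 by limma 0 passed. The share of all named genes was 0.306% and 0.0109%. The median difference of all 9155 named genes was 0.03, and -0.01 without CH 3. Of all named genes 15.1% had an unadjusted p under 0.05 and 55.5% a positive difference, and 2.95% and 45.4% without CH 3; the counts of each list are to be read against these shares. For single genes of the lists given without an adjusted p beside the value without CH 3, that adjusted p was 1.00 by limma. Scaling mattered at this size: 11 of the 42 list medians had another sign after quantile normalization, 7 after median centring and 12 without CH 3. The lists described next by their median kept its sign under all 3, apart from those where another sign is given, and the median of all named genes stayed within 0.1 of 0.

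**Figure D4:**
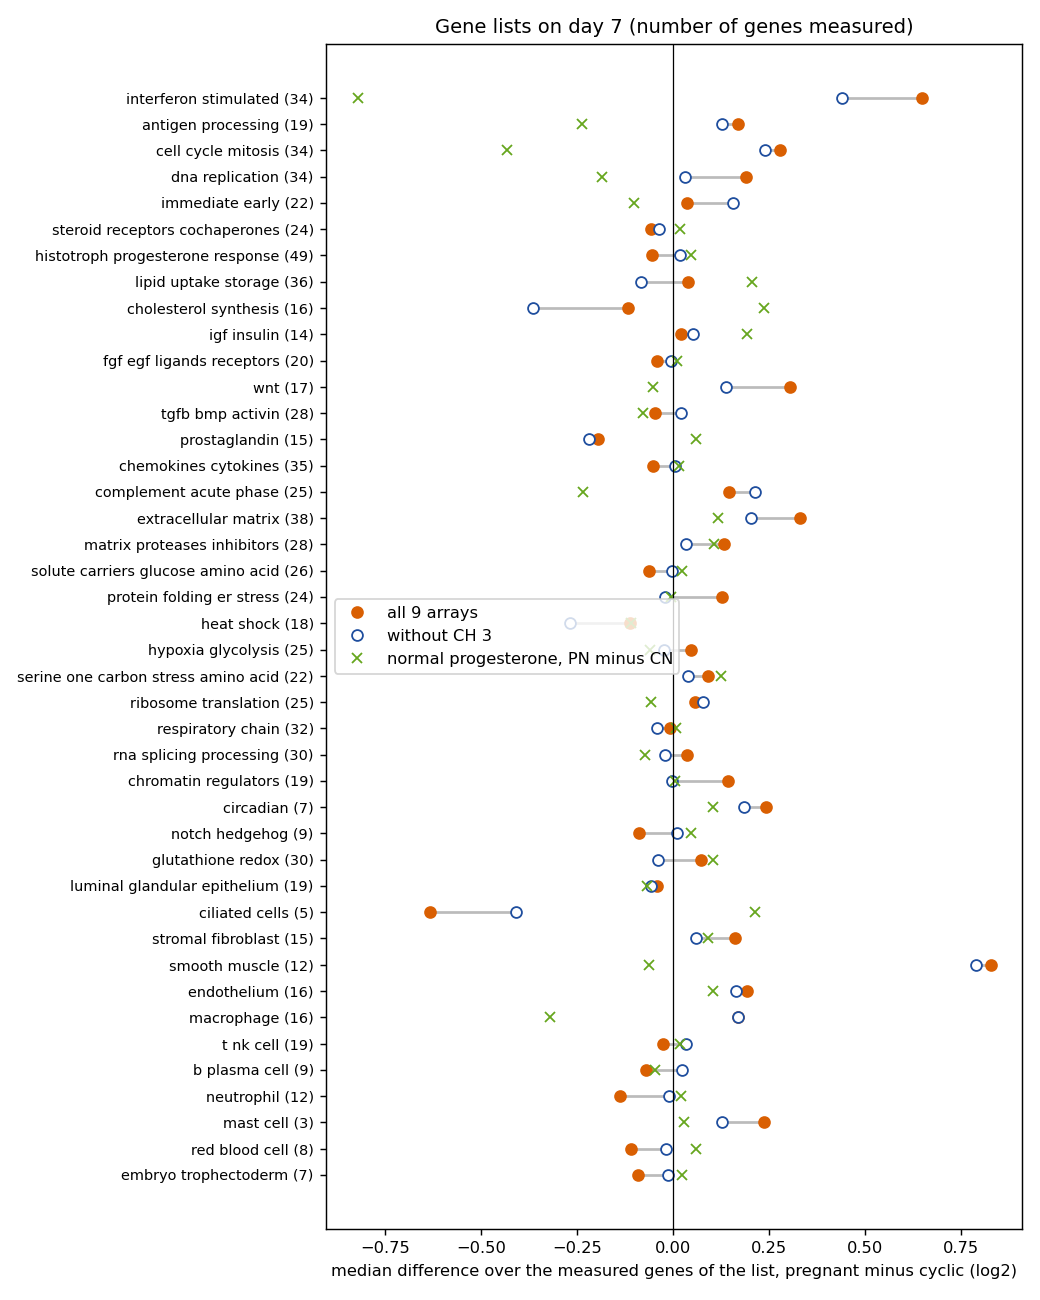
Median log2 difference between pregnant and cyclic heifers over the measured genes of each list (number in brackets): orange, all 9 arrays; open blue, without CH 3; green cross, normal progesterone. Most medians lie within 0.25 of 0; those of interferon-stimulated genes (0.65) and smooth muscle markers (0.83) are the highest with all arrays, and that of ciliated cells (-0.64) the lowest.

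Interferon-stimulated genes are the classic response of bovine endometrium to the conceptus. Of 34 measured, 0 passed by limma (0 at an unadjusted p under 0.05, with and without CH 3), while 32 had a positive difference with all arrays and 33 without CH 3. Their median difference was 0.65, and 0.44 without CH 3, against -0.82 at normal progesterone. The level depended on single heifers. The list mean was 9.03 in PH 2 and 7.73 in PH 5, 7.10 in CH 2, and 6.11 to 6.42 in the other 6 arrays, so that 3 of the 5 pregnant heifers were at the cyclic level. Without PH 2 the median difference was 0.11. A spread of this kind was also present without embryos: CN 1 and CN 2 were at 9.41 and 8.06 and the CN group at 7.18 ± 1.50 (SD, n = 5), while the 5 arrays of PN lay at 6.27 ± 0.09.

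ISG15, a ubiquitin-like protein conjugated to others after interferon, was at 6.83, 12.73, 7.24, 7.42 and 10.40 in PH and at 9.38, 6.46, 7.19 and 6.23 in CH. The groups overlapped, and its difference was 1.61 ± 1.16 (adjusted p = 0.448; without CH 3 1.33 ± 1.27). The dynamin-like antiviral GTPases behaved alike in that PH 2 was highest: MX1 was at 12.53 in PH 2 and between 7.34 and 10.72 elsewhere, with a difference of 0.89 ± 0.89 (adjusted p = 0.632; without CH 3 0.64 ± 0.98), and MX2 was at 7.16 in PH 2 and between 2.04 and 3.69 elsewhere (0.87 ± 1.05, adjusted p = 0.712; without CH 3 0.77 ± 1.15). OAS1X, of the family that senses double-stranded RNA, was at 4.40, 7.46, 3.58, 2.15 and 6.94 in PH and at 2.25, 2.67, 2.71 and 2.83 in CH. Of the pregnant arrays 4 were above all cyclic ones and PH 4 was below them, and the difference of 2.29 ± 1.16 did not pass (adjusted p = 0.226; without CH 3 2.31 ± 1.27). Antigen-processing genes had a median of 0.17 (0.13 without CH 3) and 0 of 19 passed by limma (0 at an unadjusted p under 0.05). BOLA, a name for bovine major histocompatibility class I genes with many alleles and near-identical copies, was at 2.43 in CH 3 and at 11.20 to 13.77 in the other 8 arrays, and its difference went from 2.72 to 0.28 without CH 3; its probe set is uncertain for that reason.

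**Figure D5:**
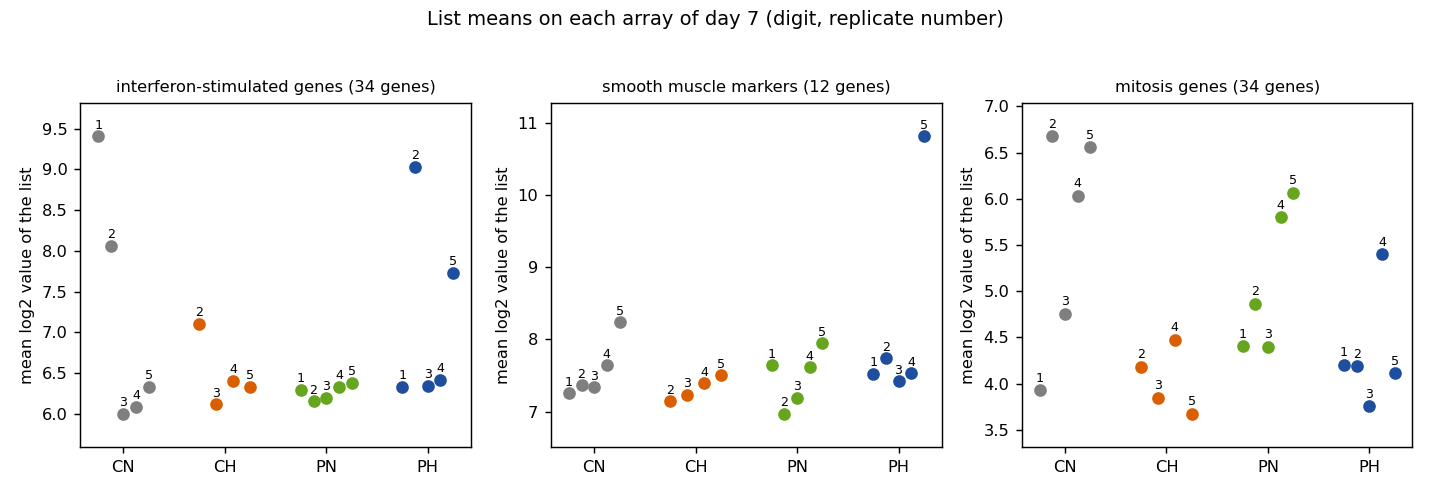
Mean log2 value of 3 gene lists on each day 7 array (digit, replicate number) in CN, CH, PN and PH. PH 2 (9.03) and PH 5 (7.73) are above the other pregnant arrays for interferon-stimulated genes, PH 5 (10.82) for smooth muscle markers and PH 4 (5.40) for mitosis genes.

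The receptors of steroid hormones showed no call. PGR, the progesterone receptor, was at 2.50, 2.67, 2.53 and 3.07 in CH and 2.61, 2.51, 2.60, 2.75 and 2.52 in PH, a difference of -0.10 ± 0.32 (adjusted p = 0.921; without CH 3 -0.11 ± 0.35), and ESR1, an estrogen receptor, was at 2.23 to 2.73 in CH and 2.23 to 3.33 in PH (0.29 ± 0.22, adjusted p = 0.489; without CH 3 0.25 ± 0.24). Both were near the floor in both groups, where a difference could hardly be seen. NR3C1, the glucocorticoid receptor, was at 6.58, 6.27, 6.28, 6.34 and 6.55 in PH and 5.81, 4.98, 5.91 and 5.48 in CH. No array overlapped, but the difference of 0.86 ± 0.27 did not pass (adjusted p = 0.0647; without CH 3 0.67 ± 0.29, adjusted p = 1.00), and CN and PN were at 6.39 ± 0.85 and 6.50 ± 0.22. SGK1, a kinase induced by glucocorticoids and also by progesterone, was at 8.76, 9.89, 8.18, 8.32 and 8.60 in PH and 9.18, 10.98, 10.72 and 10.32 in CH, so that PH 2 and CH 2 overlapped. Its difference of -1.55 ± 0.42 did not pass (adjusted p = 0.0647; without CH 3 -1.33 ± 0.46, adjusted p = 1.00). Over the 24 steroid receptor and cochaperone genes 0 passed by limma (5 at an unadjusted p under 0.05, 20.8%, and 1 without CH 3), with a median of -0.06.

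Genes of the progesterone response and of secretion to the embryo had a median of -0.06 over 49 (0.02 without CH 3), and 0 passed by limma (8 at an unadjusted p under 0.05, or 16.3% against 15.1% of all named genes, and 3 without CH 3). DGAT2, which makes triglyceride and is a known endometrial target of early progesterone in cattle, was at 8.91, 9.07, 9.49 and 9.99 in CH and 8.89, 8.24, 8.84, 7.28 and 9.02 in PH. PH 5 alone was within the cyclic range, and the difference of -0.91 ± 0.66 did not pass (adjusted p = 0.457; without CH 3 -1.01 ± 0.72). Both groups were above normal progesterone, with 5.71 ± 1.69 in CN and 5.92 ± 0.68 in PN; the progesterone difference was 3.65 ± 0.66 in cyclic (adjusted p = 0.000768) and 2.53 ± 0.62 in pregnant heifers (adjusted p = 0.0323). That comparison of the device was passed by 3.78% of probe sets in cyclic heifers (0.754% without CH 3) and by 0.525% in pregnant ones, and it shares the CH and PH arrays. LTF differed by 1.65 ± 0.82 with all arrays (adjusted p = 0.214) and by 0.36 ± 0.80 without CH 3. DKK1, a secreted inhibitor of Wnt signalling, was at 8.38, 7.10, 7.39, 6.92 and 4.28 in PH and 6.29, 5.42, 5.68 and 4.85 in CH. PH 5 was the lowest of all and the other 4 pregnant heifers the highest, with a difference of 1.25 ± 0.72 (adjusted p = 0.305; without CH 3 1.21 ± 0.79). The brush-border peptidases ANPEP (-0.63 ± 0.53, adjusted p = 0.545; without CH 3 -0.87 ± 0.58) and MEP1B (0.27 ± 0.47, adjusted p = 0.823; without CH 3 0.48 ± 0.51) did not pass and overlapped. The myostatin gene MSTN (-0.25 ± 0.79, adjusted p = 0.918) and OXTR, the oxytocin receptor (-0.24 ± 0.87, adjusted p = 0.928), did not pass either, and their differences were 0.02 ± 0.86 and 0.19 ± 0.95 without CH 3.

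Genes that make cholesterol, the precursor of steroids and a membrane lipid, had lower medians in pregnancy. Of 16, 2 had a positive difference with and without CH 3, and the median was -0.12, and -0.37 without CH 3, while 0 passed by limma (0 at an unadjusted p under 0.05, 2 without CH 3). The list mean was 8.50, 8.59 and 8.57 in CH 2, CH 4 and CH 5, 7.78 in CH 3, and 8.03, 8.45, 8.37, 7.91 and 8.38 in PH, so the 3 other cyclic arrays were above all pregnant ones and CH 3 below. MSMO1, a sterol methyl oxidase, differed by -0.41 ± 0.21 (adjusted p = 0.239; without CH 3 -0.65 ± 0.22, adjusted p = 0.942), and NSDHL, which works beside it, by -0.32 ± 0.28 (adjusted p = 0.563; without CH 3 -0.67 ± 0.29). Prostaglandin genes had a median of -0.20 (-0.22 without CH 3), with 0 of 15 passing by limma (1 at an unadjusted p under 0.05, 0 without CH 3).

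For mitosis genes the positive median rested on 1 heifer. The mean of 34 mitosis genes was 5.40 in PH 4 and 3.67 to 4.47 in the other 8 arrays. The median difference was 0.28 (0.24 without CH 3) and -0.02 without PH 4, and 0 passed by limma (2 at an unadjusted p under 0.05, 1 without CH 3). MAD2L1, a protein of the spindle checkpoint, went the other way, at 5.40, 4.59, 4.60, 5.25 and 5.48 in PH and 5.91, 5.69, 6.30 and 6.29 in CH, with no overlap; its difference of -0.98 ± 0.43 did not pass (adjusted p = 0.156; without CH 3 -1.10 ± 0.47). Among 34 DNA replication genes 0 passed by limma (4 at an unadjusted p under 0.05, 2 without CH 3). The replication clamp loader subunit RFC4 was at 6.40, 6.16, 5.73, 6.26 and 6.04 in PH and 4.95, 5.10, 5.78 and 5.60 in CH, overlapping at PH 3 and CH 4, with a difference of 0.76 ± 0.21 (adjusted p = 0.0647; without CH 3 0.68 ± 0.23, adjusted p = 0.981).

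Stromal and matrix genes had mostly positive differences, without a call. The 15 stromal markers had a small median of 0.16 (0.06 without CH 3). Of these 11 had a positive difference either way, and the lowest was -0.71 (-0.69 without CH 3). Here 0 passed by limma (2 at an unadjusted p under 0.05, or 13.3% against 15.1% of all named genes, and 1 without CH 3). Of 38 matrix genes 32 had a positive difference (31 without CH 3), with a median of 0.33 (0.20), and 0 passed by limma (7 at an unadjusted p under 0.05, or 18.4% against 15.1% of all named genes, and 1 without CH 3). MFAP4, a protein of elastic microfibrils, was at 6.75, 6.27, 6.11, 5.85 and 6.55 in PH and 5.04, 4.42, 4.88 and 6.14 in CH; CH 5 was within the pregnant range and the other 3 below it, and the difference was 1.19 ± 0.41 (adjusted p = 0.0727; without CH 3 0.95 ± 0.45). PDGFRA, the receptor of platelet-derived growth factor that marks stromal fibroblasts, was at 9.67, 9.74, 9.39, 9.48 and 9.28 in PH and 8.67, 8.83, 9.11 and 8.94 in CH, without overlap. That difference was 0.63 ± 0.23, and 0.61 ± 0.25 without CH 3, and did not pass (adjusted p = 0.0814 and 1.00). IGF2, an insulin-like growth factor made by the stroma, was at 8.55 to 9.09 in PH and 7.52, 8.17, 7.79 and 8.78 in CH (0.68 ± 0.32, adjusted p = 0.183; without CH 3 0.72 ± 0.35). IGF2 had the highest difference with all arrays among 14 genes of insulin and insulin-like growth factors. The median of these 14 was 0.02 (0.05 without CH 3, and -0.07 under median centring). Of them 8 had a positive difference (10 without CH 3), and the lowest was -0.39 (-1.02 without CH 3). The 17 Wnt genes had a median of 0.30 and 16 positive differences, and 0.14 and 13 without CH 3, with 0 passing by limma (1 at an unadjusted p under 0.05, 0 without CH 3).

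Markers of smooth muscle were high in 1 pregnant heifer. The mean of the 12 markers was 10.82 in PH 5 and 7.14 to 7.74 in the other 8 arrays. MYH11, smooth muscle myosin, read 12.15 in PH 5 and 5.66 to 8.37 elsewhere, and DES, the muscle filament protein desmin, 10.85 and 5.25 to 7.12. All 12 markers had a positive difference and a median of 0.83 (0.79 without CH 3), and 0.18 without PH 5, with 0 passing by limma (0 at an unadjusted p under 0.05, 1 without CH 3). Without CH 3 and PH 5 together 12 probe sets passed in place of 8, and 7 of them were among the 75. PH 5 was also the lowest array for DKK1 and ANPEP and the second highest for interferon-stimulated genes; the part of muscle in those values was not tested.

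Ciliated cells had the lowest median of the 42 lists, over few markers. Of the 5 markers 4 had a negative difference, and the median was -0.64 (-0.41 without CH 3, and -0.39 to -0.88 when 1 pregnant array was omitted), with means of 6.75, 7.90, 7.33 and 7.03 in CH and 6.20 to 7.67 in PH, overlapping, and 0 passed by limma (0 at an unadjusted p under 0.05 either way). For macrophages (16 markers) the median was 0.17 with and without CH 3, and 0.06 without PH 5. For endothelium (16) it was 0.19 and 0.16, and 0.12 to 0.26 when 1 pregnant array was omitted. The medians of T and natural killer cells (-0.03 over 19, 0.03 without CH 3), B and plasma cells (-0.07 over 9, 0.02) and neutrophils (-0.14 over 12, -0.01) moved toward 0 or past it without CH 3, and the first pair were positive after quantile normalization too. Markers of these immune cells were dim. CD79A, the B cell receptor chain, was at 3.23 in CH 3 and at 2.15 to 2.25 in the other 8 arrays. The 19 epithelial markers had a median near 0, at -0.04 (-0.06 without CH 3). Of these 6 had a positive difference either way, up to 0.90 with all arrays. Here 0 passed by limma (0 at an unadjusted p under 0.05, 1 without CH 3). SPINT2, an epithelial inhibitor of serine proteases, was at 11.84, 12.10, 11.97, 12.07 and 11.85 in PH and 12.28, 12.24, 12.16 and 12.29 in CH, with no overlap and a difference of -0.28 ± 0.17 (adjusted p = 0.337; without CH 3 -0.28 ± 0.18).

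Heat shock genes had a median of -0.11 over 18 (-0.27 without CH 3), with 0 passing by limma (1 at an unadjusted p under 0.05 either way). DNAJB1, a cochaperone of the 70-kilodalton heat shock proteins, was at 6.73, 7.09, 6.99, 6.90 and 7.10 in PH and 7.27, 8.27, 7.50 and 7.50 in CH, without overlap, and its difference of -0.68 ± 0.31 did not pass (adjusted p = 0.174; without CH 3 -0.47 ± 0.33). Housekeeping genes differed little: ribosomes and translation (25 genes, mean 13.32 to 13.51 over the 9 arrays, median difference 0.06, but -0.03 under median centring) and the respiratory chain (32 genes, median difference -0.01). In both lists 0 genes passed by limma (0 at an unadjusted p under 0.05 with all arrays, and 1 and 0 without CH 3).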

How the data were processed

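The authors deposited 1 table of log2 values per probe set; limma, RMA and GCRMA are named in the submitters' processing notes, and which of RMA and GCRMA made the values, the versions and the genome build are not given in the sources used here. Control probe sets (112 of 24128) were left out, which left 24016. Names came from the platform annotation; 13263 identifiers matched current RefSeq genes of cattle, with 0 symbols changed.

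Means of the 16 groups were fitted with limma 3.58.1 in R 4.3.3 over all 79 arrays (63 residual degrees of freedom), by empirical Bayes with neither a trend nor robust estimates, and again without CH 3. All adjusted p values are from limma. The fit was tested on simulated data, where each probe set had the same normal spread on every array and only brighter probe sets were changed. That test held no array like CH 3 and does not cover the dim probe sets that make up most calls. Python 3.11.15, pandas 2.3.3 and matplotlib 3.10.9 served for lists and plots.

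The comparison, the gene lists and the named genes were chosen with earlier results of these data known. The rule for names took up to 20 called genes in each direction, called genes of the interaction, called members of each list or otherwise the 2 with the lowest p, and 12 genes of interest; not all are described. Lists are described by counts and medians, without a test. Settings varied were the arrays fitted, scaling, level, moderation, weights, a replicate block, the threshold and the omission of each array; those that combine CH 3 with another change and those without arrays of narrow distribution were added after the data were seen.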

Additional observations from a re-analysis of the deposited data

Results flagged for a closer look

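Among 36 genes, 72 groups of 4 or 5 arrays were searched for an array far from the rest of its group, and 10 were found. Chance gives about 1 in 20 groups for normal values of genes not chosen from these arrays. Many of the 36 were chosen from them, so the 10 cannot be set against that rate. Array CH 3 was such a case for NTRK3 (3.98, others 2.16 to 2.44) and MGARP (4.39, others 2.65 to 2.94). PH 2 was one for ANKRD13D (2.68, others 2.05 to 2.19), CDK18 (2.08, others 2.11 to 2.12), HBB (2.73, others 2.63 to 2.65), POP1 (2.07, others 1.96 to 1.97) and MX2 (7.16, others 2.06 to 3.50). The rest were PH 4 for CACNB2 (2.69, others 2.52 to 2.55), CH 2 for MX2 (3.69, others 2.04 to 2.23) and PH 5 for ANPEP (8.09, others 10.12 to 10.59).

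The pregnancy difference of 2 genes passed the limma test of a change with progesterone on day 7, HBB (-0.47) and TEPSIN (-0.17). Against day 13 it differed for CACNB2 (-2.03), RGS14 (-1.43), ANKRD13D (-0.91), TEPSIN (-0.17) and NR3C1 (1.73, with day differences of 0.86 and -0.88). Against day 16 it differed for ACCS (1.11), RGS14 (-1.44), ANKRD13D (-0.77), FTCD (-0.53), HSF1 (-0.62), KDM1A (0.52), DTX3L (-1.83) and MX2 (-6.23). For MX2 and DTX3L the differences on day 16 were 7.10 and 2.55. Without CH 3 the tests of RGS14 against day 16 (adjusted p = 0.0215), of ANKRD13D against days 13 and 16 (0.0351 and 0.0197) and of MX2 (0.0262) still passed by limma, and those of the other genes named here did not. Every test against day 13 also uses the narrow array of that day, replicate 1 of its pregnant group. The part of that array in these differences was not tested.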

How the results depend on the processing

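The direction of the 23 called genes described was kept under the settings run for them, and each lost its call under some. Those settings use arrays that chose the genes, so the kept direction was largely set by that choice. In place of 75 probe sets for pregnancy at high progesterone, 0 passed when only the 19 day 7 arrays were fitted (1423 at an unadjusted p under 0.05), 0 with the 9 arrays (925), 0 with 8 of them, without CH 3 (951), and 0 above the median level (989). Median centring gave 40, trend and robust moderation 127, probe sets with 1 symbol 28, and 1 probe set per gene 27. A threshold of 0.1 gave 2767, 2482 of them lower. Quantile normalization (64) and array weights (112, of which 19 higher and 28 shared with the 75) stayed within 1.5 times. Omitting 1 array gave 8 to 4601: 4026 on leaving out CH 2, 8 for CH 3, 2435 for CH 4, 4601 for CH 5 and 46 to 53 for a pregnant array. Chosen after the data were seen, omission of CH 3 gave 15 with quantile normalization, 245 with array weights and 12 with PH 5 omitted too. Omission of the 2 narrow arrays, CH 3 and replicate 1 of the day 13 pregnant group, was also chosen then and gave 10. For the interaction (6) the counts were 0 with the 19 arrays (850 at an unadjusted p under 0.05), 0 above the median level (692), 3 with centring, 3 with trend and robust moderation, 43 with weights, 81 with weights and without CH 3, and 1 to 3210 on omission of 1 array (2476 for CH 2, 52 for CH 4, 3210 for CH 5, 12 for PN 5). At normal progesterone (0) weights gave 8, the replicate block 1, and omissions 0 to 2.

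The deviations of same-numbered cyclic and pregnant arrays had correlations of 0.13, -0.00, -0.05 and -0.05 for numbers 2 to 5. Those of arrays with unlike numbers ran from -0.13 to 0.12. So few values cannot decide whether the numbers mark something the arrays share. A replicate block gave 109 in place of 75, with 70 shared, and 4 in place of 6 for the interaction. Dim signals limit the calls: 61 of the 75 had a level under 3.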
